A study of Homo sapiens with 16 samples.

Results

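These are the stretches of open chromatin that IMR90 lung fibroblasts show in every library without active Raf, and in no library with active Raf, whether in hypoxia or in normoxia. ATAC-seq inserts sequencing adapters into accessible DNA with Tn5 transposase, and a peak is a stretch with more insertions than its surroundings. The 16 peak lists were merged wherever intervals overlapped by at least 1 bp, and a library had a region if any of its peaks lay in it. The members were chosen by these measured values: a peak in 0 of the 8 Raf-active and in all 8 Raf-inactive libraries. This held for 16177 of 355447 merged regions. Of those, 299052 drew on 2 or more libraries. The loss with Raf is therefore the rule itself and was not tested.

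IMR90 cells are human lung fibroblasts. Per the labels, the cells received a retrovirus with a B-RAF fusion to the estrogen receptor (∆B-RAF:ER), which 4-hydroxytamoxifen (4-OHT) switches on. The 4 groups had 4 libraries each: Raf-active in hypoxia, Raf-active in normoxia, Raf-inactive in hypoxia and Raf-inactive in normoxia. Hypoxia meant 0.5% oxygen. The labels do not state how the Raf-inactive cells were handled apart from that name, nor the time in hypoxia or with 4-OHT, nor whether the replicates were separate cultures. P-values below therefore speak to the variation among these libraries alone, and that variation may be technical. Markers were read as peaks within 1 kb of either gene end. Of 12 fibroblast markers, 9 to 11 had such a peak in each library, while 5 to 7 of 8 epithelial, 3 to 5 of 7 endothelial and 4 to 5 of 6 blood markers also had one. The fibroblast marker THY1 and the epithelial marker GRHL2 had none in any library. The epithelial markers CDH1 and KRT19 had none in any Raf-active library, CDH1 had one in at least 1 library of each Raf-inactive group, and KRT19 in at least 1 of Raf-inactive normoxia. The shares of fibroblast and epithelial markers overlapped, so this measure alone does not check the cell type.

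Sustained Raf signalling drives fibroblasts into oncogene-induced senescence, a stable arrest in which the chromatin is reorganised. Most accessible sites away from gene starts are enhancers, short elements bound by transcription factors that act on genes at a distance, and they differ between cell states more than gene starts do. Gene starts rich in CpG, by contrast, are open in most cell types.

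A few members lay on gene starts that RefSeq lists, and their sequences show what such starts look like. The windows below are the 250 bases before the start of the 3 genes whose members ranked highest among those that held the whole promoter window, from RefSeq's GRCh38.p14 table. They are chr3:114745983-114746232 for ZBTB20, a zinc finger repressor, chr6:131013610-131013859 for EPB41L2, a linker between membrane and cytoskeleton, and chr3:129724114-129724363 for TMCC1, a protein of the endoplasmic reticulum. All 3 are on the minus strand and run 5′ to 3′, with capitals for matches to 1 of 20 motifs searched on both strands.
ZBTB20: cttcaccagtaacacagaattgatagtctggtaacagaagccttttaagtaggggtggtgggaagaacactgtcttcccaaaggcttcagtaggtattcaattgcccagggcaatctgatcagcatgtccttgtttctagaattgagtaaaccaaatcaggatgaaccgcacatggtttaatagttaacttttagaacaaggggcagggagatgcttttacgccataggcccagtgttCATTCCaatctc
EPB41L2: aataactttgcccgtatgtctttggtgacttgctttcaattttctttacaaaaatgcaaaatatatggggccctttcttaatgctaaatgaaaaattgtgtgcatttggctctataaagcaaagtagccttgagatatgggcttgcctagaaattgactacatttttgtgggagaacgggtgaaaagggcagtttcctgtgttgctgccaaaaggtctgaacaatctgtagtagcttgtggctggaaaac
TMCC1: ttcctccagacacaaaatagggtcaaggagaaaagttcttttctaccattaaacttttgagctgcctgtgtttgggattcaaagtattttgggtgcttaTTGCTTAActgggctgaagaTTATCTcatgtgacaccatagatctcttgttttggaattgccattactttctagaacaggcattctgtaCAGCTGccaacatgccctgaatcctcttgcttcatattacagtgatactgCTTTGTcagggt
The ZBTB20 window matched the TEAD motif GGAATG, and the TMCC1 window matched the motifs of C/EBP, GATA and SOX and an E-box, while the EPB41L2 window matched none of the 20. The letters searched for C/EBP were TTGCNNAA, and the E-box was CAGCTG. Each of the 3 genes has other listed starts. With the 50 bases after the start included, the GC content was 43.3% for ZBTB20, 39.7% for EPB41L2 and 42.7% for TMCC1.

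The hairpins of 10 miRNAs overlapped members. They were MIR4437, MIR9-2, MIR4657, MIR591, MIR4289, MIR4295, MIR3973, MIR6755, MIR6076 and MIR7854, of which MIR4437 and MIR7854 were only partly inside. The mature sequences of MIR9-2, whose miR-9 is known for its role in neural development, and of MIR591, whose member was the strongest of these, are shown from RefSeq with the seed, bases 2 to 8, in capitals.
hsa-miR-9-5p: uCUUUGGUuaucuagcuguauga
hsa-miR-9-3p: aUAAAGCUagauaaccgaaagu
hsa-miR-591: aGACCAUGgguucucauugu
The member with MIR9-2 was chr5:88666748-88667597, outside any protein-coding gene and 49520 bp from MEF2C, a transcription factor of muscle and neurons. Its fold enrichment, the authors' value for the pileup at the summit over the local background, was 5.35, 6.31, 3.92 and 3.19 in the Raf-inactive hypoxia libraries, and 4.46, 4.24, 5.28 and 3.56 in the Raf-inactive normoxia libraries. The member with MIR591 lay inside SLC25A13, a mitochondrial aspartate-glutamate carrier, at chr7:96219241-96220024. It had folds of 10.2, 12.5, 8.36 and 7.44 in Raf-inactive hypoxia, and 12.8, 10.5, 11.5 and 12.9 in Raf-inactive normoxia. Both had a peak in every Raf-inactive library, but that with MIR9-2 was weak, at a median percentile of 8.33, against 61.4 for that with MIR591. The percentile ranks a region's fold enrichment within a library among the 112909 regions that all 8 Raf-inactive libraries have.

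Members made up a similar part of each Raf-inactive list, as the rule largely requires. It demands at least 1 peak of every Raf-inactive library in each of the 16177 members. Peaks inside members numbered 16730, 16591, 16687 and 16727 in Raf-inactive hypoxia and 16736, 16638, 16598 and 16690 in Raf-inactive normoxia, or 9.29% to 9.86% of a list. They covered 6.72 to 7.23 Mb, or 8.55% to 8.74% of all bases under peaks. The Raf-active lists held none of these peaks by the rule. They had 190378 to 206757 peaks each, against 169287 to 179646 in the Raf-inactive lists. The files state no read totals, so depth was read from the background pileup of reads that the peak caller's fold and p imply. It was 6.53 to 8.34 in Raf-active hypoxia, 6.09 to 7.10 in Raf-active normoxia, 4.61 to 5.02 in Raf-inactive hypoxia and 3.01 to 3.50 in Raf-inactive normoxia. Background coverage was thus higher in the Raf-active libraries. Lists scaled to the lowest background gave 17301 regions by the same rule. Of the 16177 members, 14628 (90.4%) overlapped one of these. Scaling could remove peaks from a list but add none, so no Raf-active peak could arise at a member. The part of depth in the choice of members was not tested. A region without a peak may still hold reads below the caller's threshold.

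Regions that missed the rule by 1 or 2 libraries were fewer than the members. Among regions of all 8 Raf-inactive libraries, 2504 had a peak in 1 Raf-active library, and 1796 in 2. A further 4640 regions had peaks in 7 Raf-inactive libraries and 0 Raf-active ones. The reverse pattern, all 8 Raf-active and 0 Raf-inactive libraries, held for 20864 regions, called Raf-gained here, and 78756 regions had peaks in all 16. The median fold in Raf-inactive libraries was 7.41 for members, 7.85 for the regions with 1 Raf-active peak, 5.03 for the 4640 with 7 Raf-inactive peaks and 10.7 for regions of all 16. Median lengths were 522 bp, 550 bp, 396 bp and 817 bp in the same order. The members and the regions with 1 Raf-active peak were thus alike in strength and length.

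**Figure D1:**
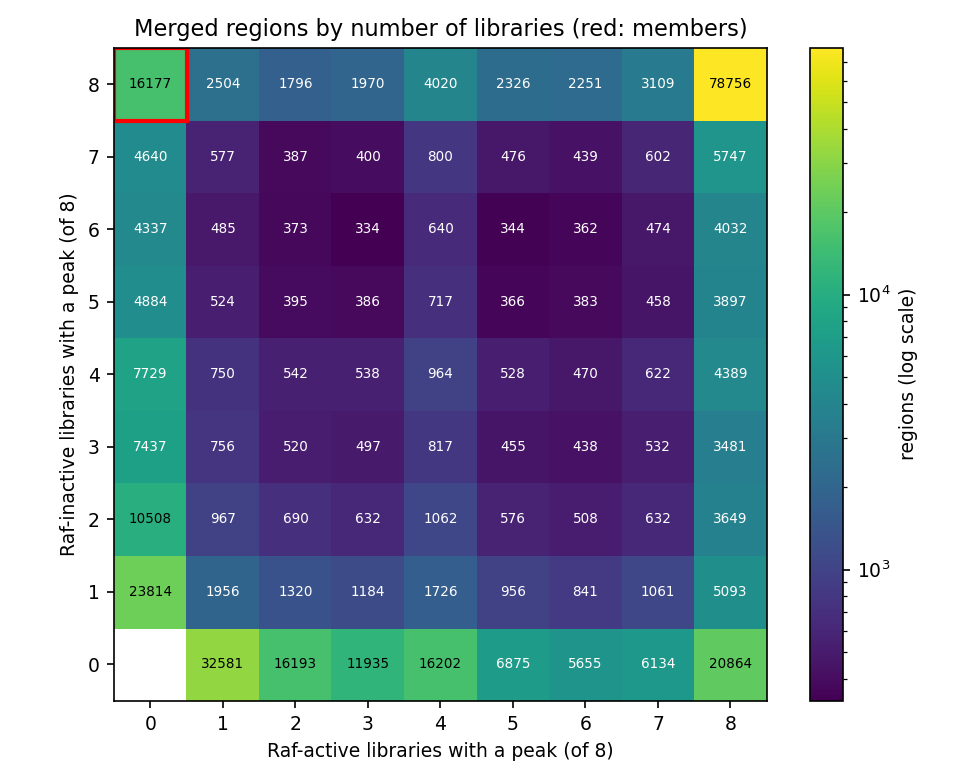
Number of merged regions by how many of the 8 Raf-active libraries (x axis) and of the 8 Raf-inactive libraries (y axis) have a peak there, with colour on a log scale. The members are the red square with 16177 regions at the top left, above the 4640 and beside the 2504 regions just outside the rule.

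Members were weak to middling, as ranked by fold, among the regions that all 8 Raf-inactive libraries have. Against all peaks of a list, the median fold of members was higher. It averaged 7.55 against 7.12 in Raf-inactive hypoxia and 7.27 against 6.51 in Raf-inactive normoxia. The median percentile of members was 32.9, with 5% below 5.91 and 5% above 82.5, and 332 of them (2.05%) were at the 90th percentile or higher. The strongest was chr3:29232920-29233556, which lay 47515 bp outside RBMS3, an RNA-binding protein. Its fold was 26.0, 28.3, 27.9 and 26.6 in Raf-inactive hypoxia and 27.3, 25.5, 29.6 and 27.1 in Raf-inactive normoxia. Next came chr5:83313204-83313838 inside XRCC4, a factor of DNA end joining, with folds of 26.2, 27.0, 29.8 and 29.6 in Raf-inactive hypoxia and 21.3, 25, 27.4 and 25.9 in Raf-inactive normoxia. The third was chr10:87157739-87158260 inside SHLD2, a subunit of shieldin, which protects DNA ends. It had folds of 27.5, 25.7, 27.9 and 26.5 in Raf-inactive hypoxia, and 26.5, 26.2, 24.5 and 25.3 in Raf-inactive normoxia. The oxygen groups overlapped in all 3 of these members. The other 7 of the first 10 lay in or near TBC1D32, ARHGAP15, HCRTR2, ZFHX4, SPEF2, FERD3L and C1QTNF3, with median percentiles from 99.2 to 99.4.

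Members lay far from the ends of genes. An end of a protein-coding gene lay within 1 kb of 379 members (2.34%), against 18.1% of regions of all 16 libraries, 5.61% of Raf-gained regions and 8.64% of all regions of at least 2 libraries. At the other extreme, 31.2% of members were over 100 kb from a gene end, against 16.6%, 17.4% and 19.97% in the same order. The median distance was 47.4 kb for members, 19.7 kb for regions of all 16, 23.5 kb for Raf-gained regions and 26.2 kb for all. The share inside a gene was less distinct, 58.5% of members against 60.9%, 51.8% and 57.3%, but the genes that held members were longer, with a median of 186 kb against 106 kb, 119 kb and 129 kb. Regions were not treated as replicates, so these shares are a description with no test. Regions of all 16 libraries were also stronger and longer than members, and the part of this in the shares was not tested. The Raf-gained regions were chosen by the same rule the other way round and had a median length of 477 bp.

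**Figure D2:**
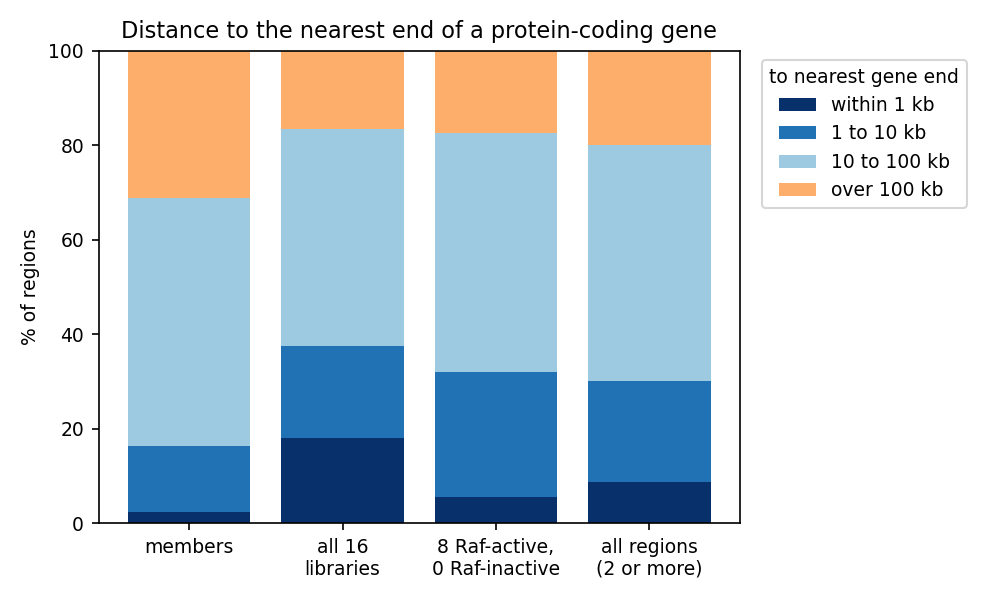
Percent of regions (y axis) by distance to the nearest end of a protein-coding gene, for members, regions of all 16 libraries, Raf-gained regions and all regions of at least 2 libraries. The members have the thinnest segment within 1 kb (2.34%) and the thickest over 100 kb (31.2%).

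The same held on the scale of megabases. The genome's sparsest 1-Mb bins, 608 of 3043 with at most 1 protein-coding gene each, held 1509 members or 9.33%, against 2.90% of regions of all 16 libraries, 2.27% of Raf-gained regions and 4.08% of all. By chromosome, members were 9.35% of the regions on chromosome 4 and 7.75% on chromosome 13, which are poor in genes, and 7.35% on chromosome 6. They were 1.10% on chromosome 19, 1.58% on chromosome 22 and 2.25% on chromosome 16, which are rich in genes, and 5.41% over all chromosomes. Chromosome 18, at 6.15%, and X, at 5.46%, were closer to the value over all chromosomes. Raf-gained regions ran the other way from members on chromosomes 4 and 19, with 4.85% of regions on chromosome 4 and 9.67% on chromosome 19.

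**Figure D3:**
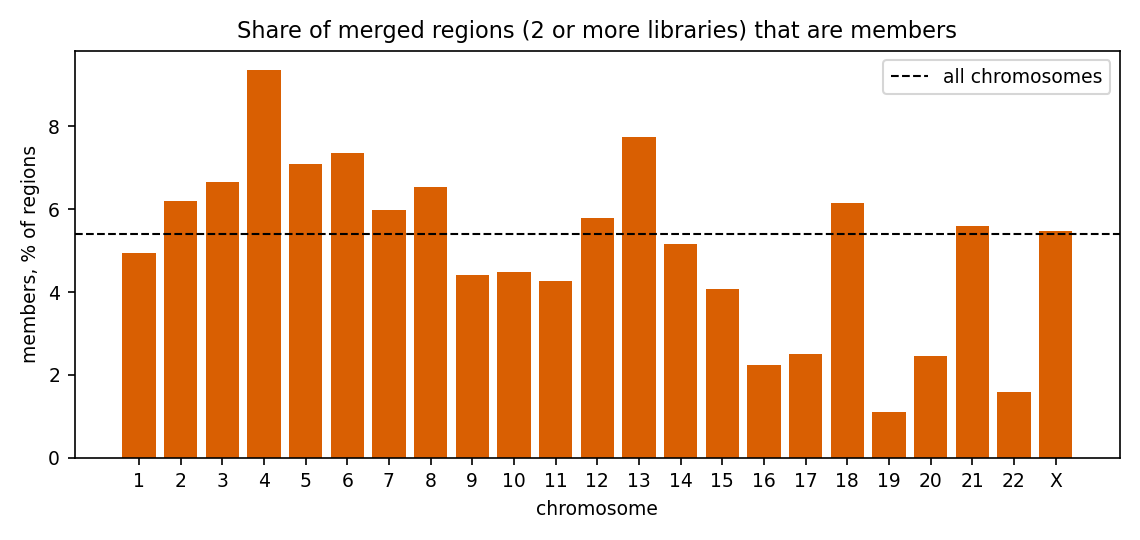
Members as a percent of the merged regions of at least 2 libraries on each chromosome (bars), with the value over all chromosomes, 5.41%, as a dashed line. Chromosome 4 is highest at 9.35% and chromosome 19 lowest at 1.10%.

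Members lay near each other, as Raf-gained regions did. Another member lay within 50 kb of 65.4% of members, and a member within 50 kb of 44.5% of all regions. Another Raf-gained region lay within 50 kb of 77.5% of Raf-gained regions, and a Raf-gained region within 50 kb of 36.1% of members and 62.3% of all regions. Of the merged regions of at least 2 libraries, 5.41% were members. With these regions in order along the chromosome, 25.4% of members stood next to another member. What uneven density along the genome would give was not computed, nor was the same share for Raf-gained regions. The longest unbroken runs held 7 members. One at chr5:128551038-128587513 spanned 36.5 kb and lay 12793 bp outside FBN2, which encodes an extracellular microfibril protein. No other region of at least 2 libraries interrupted it. The 1-Mb bin with the highest share was chr5:117000001-118000000, where 22 of 49 regions (44.9%) were members, and none was Raf-gained or present in all 16 libraries. In the next, chr7:85000001-86000000 around SEMA3D, a secreted guidance cue, 17 of 47 regions (36.2%) were members and none was Raf-gained. Over all regions of at least 2 libraries 6.98% were Raf-gained, and these 2 bins were chosen for their members. Of 2306 bins with at least 30 regions, 96 had a member share of at least 20%, and 115 had no member.

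The loci rich in members were those of long genes, several of them in cell adhesion and guidance. Longer loci hold more regions of every kind, so counts are given beside all regions of the locus. Loci were gene bodies with 10 kb on each side, so neighbouring loci can share regions, and 5208 of 19974 protein-coding loci held a member. The locus of HDAC9, a class IIa histone deacetylase, held 24 members among 86 regions. It had 36, 32, 34 and 31 peaks in Raf-active hypoxia, 28, 29, 29 and 33 in Raf-active normoxia, 73, 74, 72 and 71 in Raf-inactive hypoxia, and 72, 71, 68 and 71 in Raf-inactive normoxia. Here the count with active Raf was less than that without it in every library. PARD3B, a polarity protein, also held 24 members, among 117 regions. It had 54, 56, 57 and 53 peaks in Raf-active hypoxia, 34, 40, 36 and 39 in Raf-active normoxia, 86, 86, 88 and 92 in Raf-inactive hypoxia, and 91, 84, 83 and 90 in Raf-inactive normoxia. At this locus the Raf-active libraries in hypoxia had more peaks than those in normoxia, with no overlap, while both stayed below the Raf-inactive ones. These locus counts include the members, which the rule fixed at 0 with active Raf, and carry no test. The loci here and below were also chosen for their members, so lower counts with active Raf are partly built in.

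Other loci with many members were ROBO1 and ROBO2, receptors for the guidance cue Slit, with 21 each, the receptor tyrosine phosphatases PTPRK (20) and PTPRG (18), NAALADL2 (19), the scaffold MAGI2 (19), the glypican GPC6 (17), the secreted matrix protein EDIL3 (16) and RABGAP1L (16). ROBO1 had 27 to 30 peaks in Raf-active hypoxia, 28 to 35 in Raf-active normoxia, 72 to 76 in Raf-inactive hypoxia and 64 to 72 in Raf-inactive normoxia. At PTPRK the order of the Raf-active groups was the reverse of that at PARD3B, also with no overlap. PTPRK had 15 to 19 peaks in Raf-active hypoxia, 28 to 32 in Raf-active normoxia, 48 to 52 in Raf-inactive hypoxia and 44 to 51 in Raf-inactive normoxia. Raf-gained regions at these 11 loci numbered from 0 at PTPRK to 4 at ROBO2, NAALADL2, MAGI2, PTPRG and GPC6. Over all protein-coding loci 6.98% of regions were Raf-gained. A region cannot be both a member and Raf-gained, and these loci were chosen for their members.

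Among the 4668 loci with at least 15 regions, a high share of members was found at SNAP91, a clathrin assembly protein of neurons. It had 6 members of 15 regions (40.0%), with 3, 1, 2 and 3 peaks in Raf-active hypoxia, 1, 1, 1 and 2 in Raf-active normoxia, 12, 12, 13 and 12 in Raf-inactive hypoxia, and 11, 13, 11 and 12 in Raf-inactive normoxia. Few peaks remained called there with active Raf, at a locus chosen for its share of members. HMGCLL1, an enzyme of ketone body synthesis, had 7 members of 18 regions (38.9%). It had 1 peak in each Raf-active hypoxia library and 1, 1, 1 and 2 in Raf-active normoxia, but 15, 17, 14 and 15 in Raf-inactive hypoxia and 15, 18, 15 and 18 in Raf-inactive normoxia. The mitochondrial transhydrogenase NNT, the mitochondrial tryptophan tRNA synthetase WARS2 and the ubiquitin ligase WWP1 also had 7 of 18, followed by GRAMD2B with 12 of 32 (37.5%) and FRRS1 with 6 of 17 (35.3%). None of these 7 loci held a Raf-gained region. Over all protein-coding loci 6.98% of regions were Raf-gained, which is few at 1 locus of this size. No region can be both a member and Raf-gained, and these loci were chosen for their members.

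**Figure D4:**
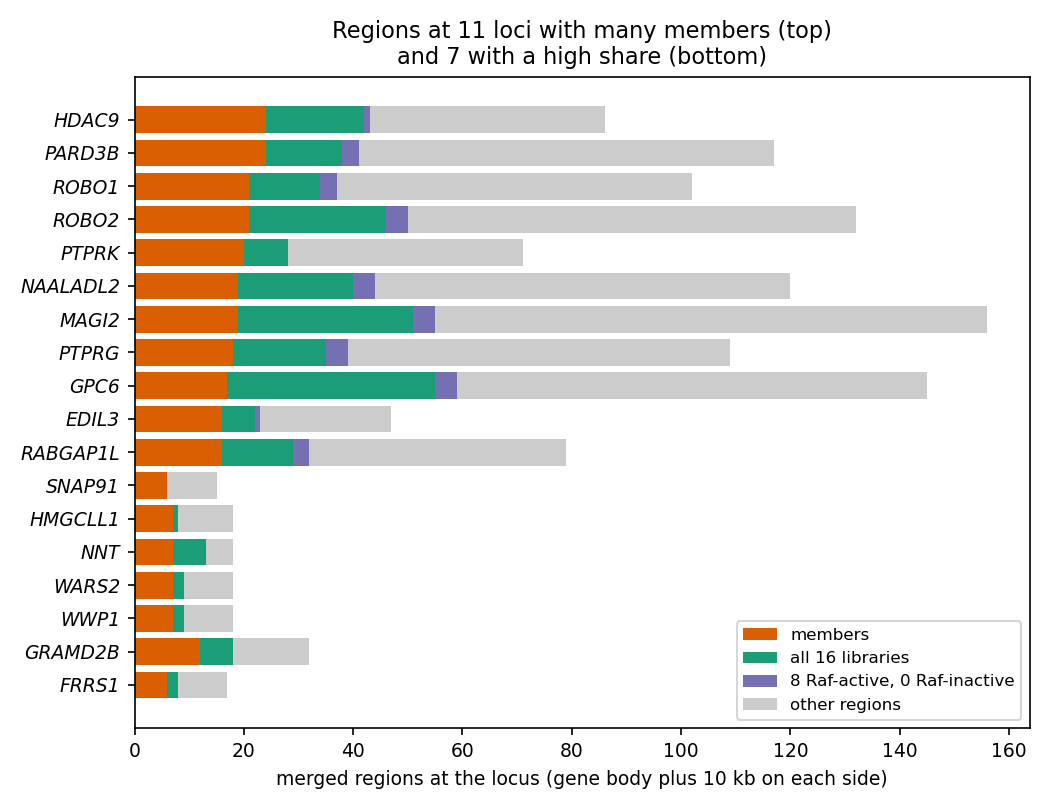
Merged regions (x axis, number) at 11 loci with many members and, below them, 7 loci with a high share of members among loci of at least 15 regions. Colours divide each bar into members, regions of all 16 libraries, Raf-gained regions and other regions, and the Raf-gained part is at most 4 in every bar.

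Gene lists of known roles differed in how much of their accessible chromatin was made of members. Over all protein-coding loci, members were 4.60% of regions and 26.1% of loci held one. In neural cell adhesion and guidance the share was 8.87%, and 22 of 32 genes held a member, with NLGN1, a synaptic adhesion protein, holding 13 beside ROBO1 and ROBO2. In cadherins and protocadherins outside the clusters it was 7.77% and 9 of 15 genes, with 13 members each at PCDH7 and PCDH9. CDH13, T-cadherin, went against its list. It held 8 members and 17 Raf-gained regions, with 147 to 158 peaks in Raf-active hypoxia, 176 to 187 in Raf-active normoxia, 110 to 121 in Raf-inactive hypoxia and 118 to 122 in Raf-inactive normoxia. Growth factor, TGF-beta and WNT signalling stood at 7.39% and 19 of 32 genes, led by the BMP receptor BMPR1B with 13 members of 45 regions, the growth factor IGF1 with 4 of 22 and the TGF-beta co-receptor TGFBR3 with 4 of 53. The genes of the first list are long, with a median of 600.2 kb, against 67.2 kb in the signalling list and 24.2 kb over all protein-coding genes. The part of gene length in these shares was not tested.

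Lists of fibroblast identity were near the 4.60% of regions over all loci. By genes that held a member they were above the 26.1% over all loci, at 42.9% for transcription factors and 51.4% for matrix genes. The part of gene length in this was not tested. Lung fibroblast transcription factors stood at 5.21% with 15 of 35 genes, led by GLI3 (8 members), NFIB (7) and NFIA (6), effectors of hedgehog signalling and nuclear factor I proteins. Extracellular matrix genes stood at 5.31% with 18 of 35, led by the collagen gene COL5A2 (7), FBN2 (6) and the proteoglycan VCAN (5). Cell cycle and arrest genes were also close to all loci (4.24%, 8 of 32, led by RB1, CDK6 and HMGA2). Lower shares of regions were found for contractile and cytoskeletal genes (2.98%, 6 of 18, led by CALD1, PALLD and MYOCD) and the senescence-associated secretory genes (3.38%, 8 of 25). These 8 members were 1 per gene, as at the chemokine genes CXCL2, CCL2 and CXCL8. By genes that held a member, the contractile list (33.3%) and the secretory list (32.0%) were above all loci. Genes of ERK feedback and early response stood at 3.10% with 6 of 24 genes, among them FOSL2, SPRED1 and MYC, and HIF targets were lowest at 1.61% with 5 of 26, among them P4HA1, P4HA2 and SLC2A1. Raf-gained regions made up 10.1% of regions in the ERK list, against 5.16% in neural adhesion and guidance and 6.98% over all loci.

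Few members met gene starts, and those that did met starts poor in CpG. Of the 15812 protein-coding genes with a start in RefSeq's promoter table, 82 had at least 100 bp of a 300-base window in a member. The median GC content of these windows was 45.3% and the median ratio of observed to expected CpG was 0.317, against 66.7% and 0.853 for 10702 genes in regions of all 16 libraries. Windows in Raf-gained regions, of 95 genes, had 56.0% and 0.336, and all starts had 62.7% and 0.756. A CpG ratio of at least 0.6 was found in 25.6% of the member windows, 88.4% of those of all 16 libraries, 24.2% of Raf-gained ones and 64.2% of all starts. Low CpG was thus shared by the member and the Raf-gained starts. Beside the 3 printed above, the starts in members included those of SEMA3E, a secreted guidance cue, HBD, the delta globin gene, the receptors LIFR and ESR1, and FOXP2, a forkhead factor. They also included exceptions with high GC, such as a start of HDAC9 at 75% and of TPM4, a tropomyosin, at 63.0%.

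Motif shares differed from those of all starts in both directions. Of the member windows, 21.95% held the GATA letters AGATAA and 28.0% the SOX letters ACAAAG, against 7.84% and 13.2% of all starts. For KLF/SP (GGGCGG) it was 23.2% against 57.3%, for ETS (CCGGAA) 7.32% against 22.5%, and for AP-1 (TGANTCA) 7.32% against 5.97%. Among starts with a GC content of 35 to 55%, the 52 member windows held GATA in 30.8%, SOX in 32.7% and the E-box in 26.9%, against 17.7%, 22.3% and 17.1% of 4181 starts. TEAD, RUNX, HIF and NF-kB were also above all starts there, by smaller margins, with NF-kB in 1 of the 52 windows. Without the GC range HIF and NF-kB were below all starts, at 19.5% against 23.3% and 1.22% against 1.95%. KLF/SP stood at 3.85% against 15.7%, C/EBP at 11.5% against 15.6% and homeobox letters at 5.77% against 8.37%. AP-1, which was above all starts without the GC range, was below them within it, at 7.69% against 11.03%, as were homeobox, C/EBP, FOX, PITX, MEF2 and STAT letters. ETS, T-box, TCF/LEF, CTCF and NFI were below all starts both with and without the GC range. In Raf-gained windows of that GC range, 45 in all, GATA stood at 8.89%, SOX at 17.8% and AP-1 at 15.6%. The E-box stood at 24.4% there, near its share in member windows, and RUNX at 24.4%, against 21.2% of member windows. The GC range did not make the sets equal in GC content. Within it the median was 43.0% for member windows, 47.7% for all starts and 49.3% for Raf-gained windows. The part of this difference in the motif shares was not tested. With 52 and 45 windows these shares rest on few genes. A match is a run of letters and not a bound site.

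The rule did not use oxygen, so hypoxia could be tested against normoxia. In the Raf-inactive libraries, members ranked lower in hypoxia. Their median percentile was 33.2, 32.4, 31.3 and 31.0 in hypoxia and 34.2, 34.2, 34.1 and 33.8 in normoxia, so every hypoxia library was below every normoxia library. The means were 32.0 ± 1.01 in hypoxia and 34.1 ± 0.179 in normoxia (SD, n = 4 each), a difference of -2.12 percentile points with p = 0.0286 by a two-sided exact permutation test, which is the smallest that 4 against 4 allows. Adjusted over the 3 such exact tests this was p = 0.0429. Regions of all 16 libraries differed by 0.256 points. Background coverage also separated these groups, at 4.79 ± 0.191 in hypoxia and 3.23 ± 0.241 in normoxia. With folds scaled to one background, members stood at 31.1 ± 0.844 in hypoxia and 34.1 ± 0.187 in normoxia, a difference of -2.98 (exact permutation p = 0.0286). The share of covered bases in members was 8.74%, 8.69%, 8.73% and 8.66% in hypoxia and 8.66%, 8.66%, 8.63% and 8.55% in normoxia. The groups overlapped, and the difference of 0.0790 points gave p = 0.0857 by the exact permutation test. It turned to -0.179 points (exact permutation p = 0.0286) when only bases in regions of all 8 Raf-inactive libraries were counted.

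Single members moved in both directions. Fitted with limma on normal scores of the ranks, over all 112909 regions and with Benjamini-Hochberg adjustment, 2483 members (15.3%) were higher and 3165 (19.6%) lower in hypoxia at an adjusted p below 0.05. Over all regions tested, 17.1% were called higher and 17.4% lower, so the share of members called was below the background for higher calls and a little above it for lower ones. With folds scaled to one background, limma called 2373 members higher and 3290 lower. Of the 11727 members under the 50th percentile, 13.1% were higher and 19.2% lower, against 15.3% and 16.1% of all regions of such rank. Of the 4450 at or above it, 21.2% were higher and 20.6% lower, against 18.9% and 18.8%. By position, members 1 to 100 kb from a gene end had 14.6% higher and 20.3% lower, against 18.0% and 16.8% of all regions there, and those over 100 kb away had 16.8% and 18.2%, against 20.9% and 15.1%. The 379 within 1 kb of a gene end ran the other way, with 16.9% higher and 16.1% lower, against 6.65% and 24.2%. In gene-poor bins 19.6% of members were higher and 14.5% lower, and outside them 14.9% were higher and 20.1% lower. All regions tested had 23.2% and 14.1% in gene-poor bins, and 16.8% and 17.6% outside, so in sparse bins higher calls outnumbered lower ones both for members and for all regions. These subsets were not set against each other by a test.

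The largest rise was at chr13:28761533-28762241, 42563 bp outside SLC46A3, a lysosomal transporter. Its percentile was 90.8, 96.3, 92.3 and 92.1 in hypoxia and 9.19, 1.74, 17.3 and 22.1 in normoxia. The change on the normal score scale was 2.78 ± 0.247 (SE, adjusted p = 5.81e-05, limma), so a peak among the weakest in normoxia was among the strongest in hypoxia. The second was at chrX:92246993-92247571 inside PCDH11X, a protocadherin, with percentiles of 97.1, 97.04, 86.9 and 92.0 in hypoxia and 15.7, 9.42, 6.16 and 37.6 in normoxia. Its change was 2.62 ± 0.254 (SE, adjusted p = 8.47e-05, limma). Rises next in size were in LRP1B, a lipoprotein receptor family member, in SUPT3H, a subunit of the SAGA complex, and near PTGER4, a prostaglandin E2 receptor, with mean percentiles of 77.9, 84.8 and 68.9 in hypoxia against 4.05, 8.43 and 3.56 in normoxia.

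The largest fall was at chr2:203562100-203562704, 26799 bp outside RAPH1, lamellipodin, which promotes cell migration. Its percentile was 0.942, 16.2, 6.25 and 4.10 in hypoxia and 91.7, 89.5, 88.5 and 82.4 in normoxia. The change was -2.84 ± 0.242 on the normal score scale (SE, adjusted p = 4.98e-05, limma). At chr6:148599884-148600564, 47840 bp outside SASH1, a scaffold protein, the percentile was 26.2, 29.5, 30.6 and 24.5 in hypoxia and 96.3, 97.2, 97.1 and 99.1 in normoxia, a change of -2.58 ± 0.125 (SE, adjusted p = 5.99e-06, limma). Falls next in size were in NUBPL, an assembly factor of mitochondrial complex I, in SOX6, a transcription factor, and near RAB10, a GTPase of membrane traffic, with mean percentiles of 11.6, 13.3 and 9.25 in hypoxia against 89.3, 89.1 and 80.6 in normoxia. All 10 of these members had groups that did not overlap, as did 30.5% of members and 33.8% of all regions tested. They are the extremes of 16177 members, chosen for the size of their change.

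At the loci with many members the changes with hypoxia were mixed. Beside 17.1% higher and 17.4% lower over all regions tested, which is few members at any 1 locus, these counts are a description. HDAC9 had 3 higher and 2 lower of 24, PARD3B 5 and 8 of 24, ROBO1 6 and 5 of 21, ROBO2 6 and 3 of 21, and PTPRK 3 and 1 of 20. NAALADL2 had 4 higher and 2 lower of 19, MAGI2 2 and 8 of 19, PTPRG 6 and 1 of 18, GPC6 3 and 4 of 17, EDIL3 3 and 2 of 16, and RABGAP1L 0 and 4 of 16. The 2 members at the HIF target P4HA1, a collagen prolyl hydroxylase, were both lower, and those at P4HA2 and SLC2A1 were not called.

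With active Raf the members themselves had no peaks, but their surroundings did, and more so in hypoxia. A peak within 5 kb of the edge lay beside 41.8%, 41.3%, 42.4% and 41.7% of members in Raf-active hypoxia and 38.0%, 38.9%, 38.1% and 40.3% in Raf-active normoxia. Every hypoxia library was above every normoxia library. The means were 41.8% ± 0.480 in hypoxia and 38.8% ± 1.06 in normoxia (SD, n = 4 each), a difference of 2.98 points with p = 0.0286 by the exact permutation test and p = 0.0429 after adjustment over the 3 tests. Around regions of all 16 libraries the same share was 71.1% in Raf-active hypoxia and 71.2% in Raf-active normoxia. Background coverage averaged 7.32 in Raf-active hypoxia and 6.75 in Raf-active normoxia, with ranges that overlap, and with every list scaled to one background the shares were 38.3% ± 0.103 in hypoxia and 36.0% ± 0.681 in normoxia, a difference of 2.25 (exact permutation p = 0.0286). Within 20 kb the means were 79.0% in Raf-active hypoxia and 74.4% in Raf-active normoxia. In the Raf-inactive libraries a second peak lay within 5 kb of 58.7% of members in hypoxia and 59.1% in normoxia. Within 2 kb these shares were 33.5% and 32.3%.

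**Figure D5:**
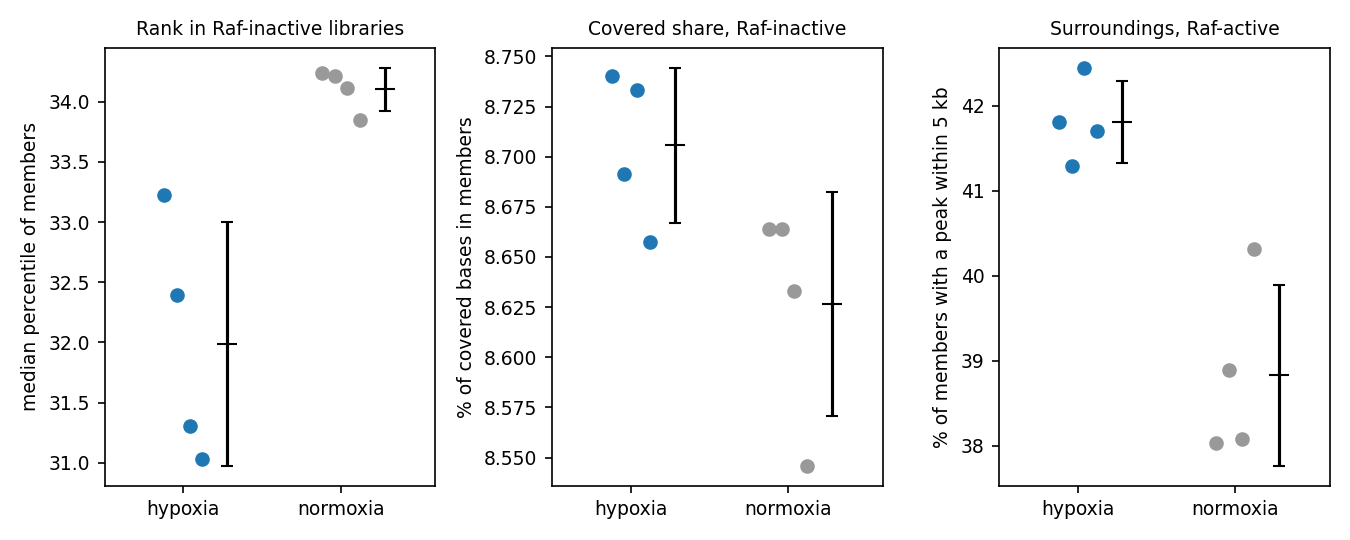
Points are libraries, with hypoxia left of normoxia and the mean ± SD (n = 4) beside each group; axes do not start at 0. Left, median percentile of members in Raf-inactive libraries (32.0 in hypoxia, 34.1 in normoxia); middle, percent of covered bases in members (8.71% and 8.63%); right, percent of members with a peak within 5 kb in Raf-active libraries (41.8% and 38.8%).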

How the data were processed

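Peaks of 16 ATAC-seq libraries of IMR90 cells were analysed, 4 per group. Per the submitters' processing notes, peaks are on hg38 and the tools were Bowtie2, MACS2, Picard, cutadapt, FastQC, bedtools, SAMtools and deepTools; their versions and settings are not given in the sources used here. The authors deposited 1 peak list per library, without pooling replicates. The deposited lists give a score, a fold (the ratio of the summit's pileup to its local background), and -log10 p and -log10 q values, the last with a q of at most 0.05. The score was not used in any result. All of these depend on depth, so they served for ranking, filtering and description inside 1 list at a time.

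Lines with the same interval counted as 1 peak, and autosomes and X were used. Depth is unknown. Background pileup was recovered as the commonest background that the listed fold and -log10 p imply for a whole-number pileup, and 31.7% to 48.5% of summits of a list stood at it. Scaling multiplied the pileup and the background of each summit by the ratio of the lowest background to the library's own, and kept peaks with a -log10 p of at least 5 where peaks were counted. Scaling could thus remove peaks but add none, and it was done after the data were seen.

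The members, gene lists and tests were chosen with earlier results of these data known. Percentiles of fold were taken within each library over the 112909 regions of all 8 Raf-inactive libraries and, as normal scores, fitted in limma 3.58.1 (R 4.3.3) with a mean-variance trend. The fit was tested on simulated data with known shifts, of which small ones were seldom called. Single values were compared by two-sided exact permutation tests (scipy 1.17.1). Genes, starts and promoter sequences are from RefSeq GRCh38.p14. No genome was used, so motifs and GC were read only in RefSeq promoter windows, and distances were taken to either end of a gene in place of its start, since the gene table gives no strand. Motifs searched on both strands were TGANTCA for AP-1, GGAATG for TEAD, TGTGGT for RUNX, CCGGAA for ETS, TTGCNNAA for C/EBP, TGTTTAC for FOX, TAATTA for homeobox factors, CAGCTG for E-boxes, AGATAA for GATA, ACGTG for HIF, TTCNNNGAA for STAT, ACAAAG for SOX, GGGCGG for KLF/SP, ATCAAAG for TCF/LEF, AGGTGTG for T-box factors and TAATCC for PITX, with NFI, CTCF, NF-kB and MEF2 by longer motifs. The SOX and TCF/LEF letters overlap. The overlap of 100 bp, the GC range, the CpG threshold and the use of gene ends for markers were chosen after the data were seen.

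Named loci were the 12 with most members, the 8 with the highest share among loci of at least 15 regions, and up to 3 of each list; 2 of these loci are not reported here. Named members were the 10 with the highest median percentile, and the 5 largest rises and 5 largest falls that limma called. Printed promoters were of the 3 members of highest percentile that held a whole window of a named gene off chromosome 8. Other genes named for their starts, and the 2 miRNA genes shown, were chosen after their values were seen. Alternatives covered peak thresholds, list length, overlap, presence rule, ranking measure, depth and each library left out.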

Additional observations from a re-analysis of the deposited data

Results flagged for a closer look

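Of 52 groups of 4 values tested for 1 library far from the others, 3 were marked, about the 1 in 20 that chance gives. All 3 were counts of peaks at loci with few peaks. At SNAP91, replicate 4 of Raf-active normoxia had 2 peaks where the others had 1, and replicate 3 of Raf-inactive hypoxia had 13 where the others had 12. At HMGCLL1, replicate 4 of Raf-active normoxia had 2 where the others had 1.

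Within 5 kb, the effect of hypoxia on the surroundings of members differed between the Raf states. The share of members with a peak within 5 kb was higher by 2.98 points in hypoxia than in normoxia with active Raf, and differed by -0.453 points with inactive Raf. The difference between these effects was 3.44 points. An exact permutation test that exchanged oxygen labels within each Raf state, over 4900 arrangements, gave p = 0.00327. It tests for no oxygen effect in either state rather than for equal effects alone. The contrast depended on the setting. Within 2 kb the share was 33.5% in Raf-inactive hypoxia and 32.3% in Raf-inactive normoxia, beside 21.9% and 20.2% with active Raf. With -log10 q of at least 5, at 5 kb, it was 56.8% and 55.1%, beside 40.7% and 37.7%. Within 20 kb it was 93.2% and 93.0%, beside 79.0% and 74.4%. The difference between the effects was not tested at these settings. Mean background coverage was higher in hypoxia in both states (7.32 against 6.75 with active Raf, 4.79 against 3.23 with inactive Raf), and its part in this difference was not tested.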

How the results depend on the processing

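The number of members stayed within 1.5 times under every alternative run. It was 14700 with -log10 q of at least 5, 14053 with a fold of at least 5, 18388 with lists of equal length, 15722 when peaks had to cover 50% of a region, 23898 when 7 Raf-inactive and up to 1 Raf-active library sufficed, 17301 with lists scaled to the lowest background, and 16311 to 16987 without any 1 library. Ranking by base pairs covered gave 510 members higher and 624 lower in hypoxia, against 2483 and 3165; the cause was not tested. The other alternatives gave 2237 to 2923 higher and 2415 to 3421 lower, and leaving out 1 library gave 1954 to 2342 and 2561 to 2938. The difference in median percentile ranged from -2.53 to -1.80 without 1 library, the share of covered bases from 0.0520 to 0.0951, and the share with a peak within 5 kb from 2.72 to 3.48. With 3 against 4 the smallest p is 0.0571, so none of these can pass 0.05. Same-numbered libraries did not deviate together (correlations from -0.0101 to -0.00498), so the numbers do not pair them. With a replicate block, limma called 2346 higher and 3058 lower, and the differences of -2.12 percentile points and 2.98 points each had an exact permutation p of 0.125, the smallest that 4 pairs allow. The difference in the share of covered bases turned to -0.179 points (exact permutation p = 0.0286) over the regions of all 8 Raf-inactive libraries and to -0.197 points (p = 0.143) with a fold of at least 5; the cause was not tested. Members within 2 kb of a gene end were 4.05%, and those in gene-poor bins of 2 Mb were 10.7%. Of 130 values of the 10 named members with hypoxia, 129 kept direction and call, and that near RAB10 reached an adjusted p of 0.0598 with limma when ranked by base pairs covered. With the start itself inside the member, 78 genes had a median GC of 45.0%. Alternatives on windows and motifs at summits need a genome and were not run. Read depth is unknown, and a missing peak means only that none was called.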
